A study of Danio rerio with 25 samples.

Results

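Larvae on D6 of a dexamethasone course were compared with larvae on D5 of the same course. The comparison uses 6 of the 25 libraries of the series, namely the D6 libraries a, b and c and the D5 libraries a, b and c of the DEX count table. They were chosen by their column names, and the letter entered the model as a block. In the study this step leads to D6, the day proposed as the turning point towards osteoporosis.

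All 6 libraries come from whole zebrafish larvae of a line that carries Tg(Ola.Sp7:nlsGFP), in which the medaka Sp7 promoter drives nuclear GFP in bone-forming cells. The D6 larvae and the D5 larvae were all kept in DEX, that is dexamethasone, a synthetic glucocorticoid. The labels call them post-DEX day 6 and post-DEX day 5, whereas the methods count the same days from fertilization. Since larvae without DEX were not analysed here for these days, the exposure and a further day of normal development cannot be told apart. The hour of sampling is not given, so a difference in hour between the days cannot be told apart from these. The sources used here do not say how many larvae went into a library or whether the libraries of a day came from separate cultures. The p-values measure the spread that remains between all 15 DEX libraries once day and letter are fitted. That spread may be technical. In whole larvae, fewer cells of a type and less RNA per cell cannot be told apart either.

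Glucocorticoids act through a nuclear receptor that switches genes on and off within hours. In mammalian muscle a lasting excess is known for wasting: genes of the ubiquitin and proteasome system and of autophagy rise, with the ubiquitin ligases atrogin-1 and MuRF1 as its classic markers. In bone, the same excess is known to lower the number and the output of osteoblasts. Most of the gene names below are the upper-case human symbols that the name table gives for zebrafish identifiers. An identifier stands beside a symbol that several zebrafish genes share.

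Between 14628715 and 16789885 reads were counted on genes in the 6 libraries. The c libraries stood apart. Over all genes tested, the root mean square difference of log2 CPM (CPM, counts relative to the scaled library size, with a prior count of 2 in the log) was 0.46 between D6 a and D6 b, but 1.14 between D6 a and D6 c and 1.05 between D6 b and D6 c. It was 0.45 between D5 a and D5 b, and 0.91 and 0.87 between D5 c and these libraries. The results below therefore come with their values in each letter and, where it matters, without the c libraries.

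On D6, 42 of 21750 genes tested were called in edgeR's quasi-likelihood test (Benjamini-Hochberg adjusted p-value below 0.05), which is 0.193% of the genes. Of these, 25 were higher on D6 (0.115%) and 17 were lower (0.0782%). The higher genes included ubiquitin ligases of muscle, proteasome subunits and autophagy receptors. The lower genes included calcium-storage proteins of muscle, enzymes of cholesterol synthesis and an enzyme of yellow pigment. Before adjustment, 2244 genes (10.3%) had a p-value below 0.05, 1275 higher (5.86%) and 969 lower (4.46%) on D6. The adjusted p-values of the called genes lay between 0.0209 and 0.0467, close to the threshold. The count of calls depended on single libraries: without D6 b, D5 a or D5 b, 0 genes were called by edgeR's test (2399, 1575 and 1580 before adjustment), against 20 without D6 a, 8 without D6 c and 19 without D5 c. Without the letter as a block, edgeR's test called 0 genes (1313 before adjustment) and DESeq2 called 109. With the a and b libraries alone, 387 genes were called (1.79%), and all 42 were among them.

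Called rises included muscle ubiquitin ligases, which tag proteins for breakdown. FBXO32, the gene of atrogin-1, had 234, 233 and 306 CPM in D6 a, b and c, against 53.8, 52.5 and 126 CPM in D5 a, b and c. Every D6 library lay above every D5 library, and the fitted difference was 1.76 ± 0.31 on the log2 scale (SE), a 3.40-fold rise (adjusted p = 0.0412). Its companion trim63a, a zebrafish gene of MuRF1, had 514, 478 and 976 CPM on D6 and 105, 114 and 392 CPM on D5. It rose 3.51-fold (log2 1.81 ± 0.30, adjusted p = 0.0371), again with no overlap between the days. Its paralogue trim63b averaged 112 CPM on D6 and 76.5 CPM on D5 and was not called by edgeR's test over all letters (log2 0.47, adjusted p = 0.704). In the a and b libraries alone trim63b was called higher (0.97, adjusted p = 0.0125). TRIM55, the related ligase MuRF2 of the sarcomere, had 20.3, 26.6 and 61.8 CPM on D6, against 7.95, 10.3 and 23.9 CPM on D5. Here D6 a lay below D5 c, so the days overlapped, although each letter pair was higher on D6 (log2 1.36 ± 0.23, adjusted p = 0.0382).

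Other called rises belong to the same machinery of ubiquitin attachment. The ligases rnf25 and mkrn1 rose 2.26-fold and 2.20-fold. Genes for substrate adaptors with a SOCS box, which join a target to a cullin ligase, rose as well: asb5a 2.49-fold and spsb3b 4.93-fold. Levels of spsb3b were low, with 6.82, 13.6 and 5.72 CPM on D6 and 1.54, 1.21 and 2.33 CPM on D5. The deubiquitinase USP13, which removes ubiquitin again, had some of the tightest values among the rises. They were 72.2, 75.1 and 67.6 CPM on D6, against 31.7, 42.6 and 40.9 CPM on D5 (log2 0.91 ± 0.16, adjusted p = 0.0412).

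Most proteasome genes had higher levels on D6, though few were called. The proteasome is the barrel-shaped protease that degrades ubiquitin-tagged proteins, and 53 of its 59 matched genes passed the filter on low counts. Of these 53, 3 were called higher on D6 (0.115% of all genes) and 0 lower, and 41 were higher at an unadjusted p-value below 0.05, where 5.86% of all genes were. The fitted difference was above 0 for 52 of the 53 (51.3% of all genes), with a median of 0.73 on the log2 scale, against 0.01 over all genes tested. This list was chosen after its values were seen. The 3 called members were PSME4 (ENSDARG00000087911), the activator PA200 that caps the barrel, psmc1b, an ATPase of the base, and PSMD11 (ENSDARG00000005134), a subunit of the lid. PSME4 (ENSDARG00000087911) had 193, 200 and 481 CPM on D6 and 28.0, 49.3 and 213 CPM on D5, with D5 c above both D6 a and D6 b. Its step was 1.87 ± 0.31 (adjusted p = 0.0382). The paralogue PSME4 (ENSDARG00000018742) averaged 86.4 CPM on D6 and 77.8 CPM on D5 and was not called. For psmc1b the values were 156, 121 and 241 CPM on D6, against 54.7, 51.2 and 88.5 CPM on D5, and for PSMD11 (ENSDARG00000005134) they were 97.3, 80.0 and 106 CPM on D6, against 42.1, 42.2 and 55.3 CPM on D5. Both rose with no overlap, 2.66-fold and 2.03-fold.

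The proteasome step was of like size in each letter, with medians of 0.81 in a, 0.63 in b and 0.73 in c. Uncalled subunits came near the threshold, and those named here were chosen after their values were seen. PSMB7, a catalytic subunit, had 208, 167 and 280 CPM on D6, against 95.7, 91.0 and 121 CPM on D5 (adjusted p = 0.0717). PSMD14, the lid enzyme that strips ubiquitin chains, had 141, 103 and 190 CPM on D6, against 62.4, 56.2 and 84.0 CPM on D5 (adjusted p = 0.0747). In a fit of the a and b libraries alone, 8 of the 53 were called higher and 0 lower, where 0.73% of all genes were called higher. DESeq2 with the letter as a block called 23 of them higher and 0 lower, where it called 0.924% of all genes higher.

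**Figure D1:**
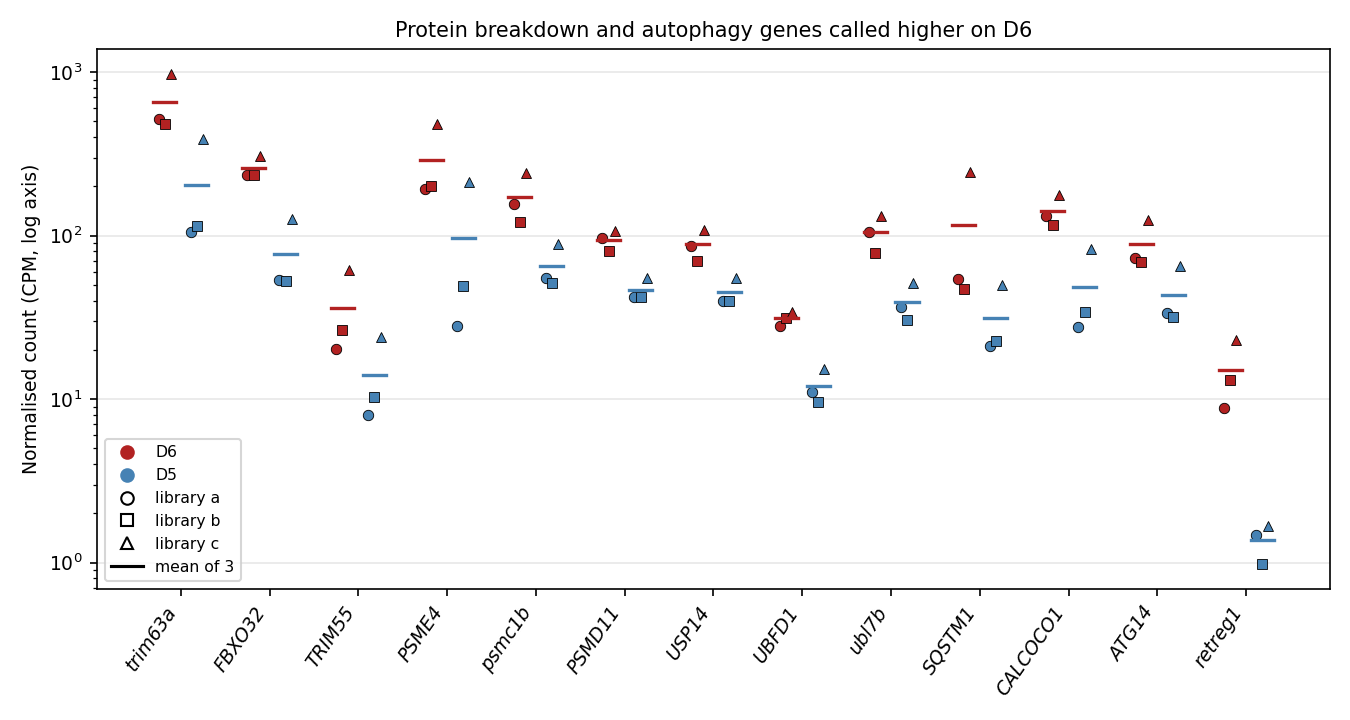
Normalised counts (CPM, log axis) of 13 called genes of protein breakdown and autophagy in the D6 libraries (red, left) and the D5 libraries (blue, right), with 1 point per library shaped by its letter and a bar at the mean of 3. Each gene was higher on D6 in every letter pair, and the c library (triangle) was the highest of its day for all 13.

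Genes around the proteasome were called as well. In the list of ubiquitin genes and of proteins that carry tagged clients, also chosen after its values were seen, 3 of 26 were called higher (0.115% of all genes) and 0 lower, and the median was 0.45. USP14, the deubiquitinase bound to the proteasome, averaged 88.2 ± 19.3 CPM on D6 and 45.0 ± 8.80 CPM on D5 (SD, n = 3 each), a 1.96-fold rise with no overlap. UBFD1, which holds a ubiquitin-like domain, rose 2.60-fold, averaging 31.1 ± 3.15 CPM on D6 and 12.0 ± 2.98 CPM on D5. It was among the 8 genes still called without D6 c. The gene ubl7b rose 2.66-fold. TXNL1, a thioredoxin-like protein that binds the proteasome, rose 3.00-fold, and TPP2, the giant peptidase that trims proteasome products, rose 1.82-fold. TPP2 overlapped between the days, with D5 c at 54.1 CPM above 53.3 CPM in D6 a and 53 CPM in D6 b.

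Autophagy delivers larger cargo to the lysosome, and receptors choose that cargo. Of 24 receptor genes, another list chosen after its values were seen, 3 were called higher (0.115% of all genes) and 0 lower, with a median of 0.38. At an unadjusted p-value below 0.05, 9 were higher (5.86% of all genes) and 1 lower (4.46%). A fitted difference below 0 was found in 6 of the 24 (48.7% of all genes). The largest rise was that of retreg1, known in mammals as FAM134B, a receptor for the endoplasmic reticulum. It had 8.80, 13.0 and 23.1 CPM on D6, against 1.47, 0.978 and 1.66 CPM on D5, an 11.2-fold rise (log2 3.48 ± 0.57, adjusted p = 0.0371). CALCOCO1 (ENSDARG00000016391), a receptor for the same organelle, had 132, 115 and 176 CPM on D6 and 27.6, 34 and 83.1 CPM on D5, a 3.24-fold rise. Both genes were free of overlap. SQSTM1, the receptor p62 for ubiquitin-tagged cargo, had 54.2, 46.8 and 245 CPM on D6, against 21.2, 22.8 and 49.8 CPM on D5. D5 c exceeded D6 b there, and D6 c carried much of the rise: the fitted difference of SQSTM1 was 1.67 ± 0.29 with all libraries and 1.19 in the a and b libraries alone.

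The wider list of autophagy and lysosome genes had 2 of 35 members called higher (0.115% of all genes), SQSTM1 and ATG14. ATG14 is the subunit that brings the lipid kinase complex to the site where an autophagosome forms. It had 72.8, 69.3 and 124 CPM on D6, against 33.6, 31.7 and 65.2 CPM on D5, a 2.06-fold rise with no overlap. Of the 35, 16 were higher at an unadjusted p-value below 0.05 (5.86% of all genes) and 0 lower, and 34 had a fitted difference above 0 (51.3% of all genes). The median steps in this list were 0.45 in a, 0.47 in b and 0.41 in c. For these 35 genes, DESeq2 with the block called 5 higher (0.924% of all genes) and 0 lower. The a and b libraries alone gave 4 higher (0.73%) and 0 lower. The list of gluconeogenesis and fasting genes, which holds FBXO32 and trim63a, had no further call by edgeR's test over all letters among its 37 members, 10 of which were higher (5.86% of all genes) and 2 lower (4.46%) at an unadjusted p-value below 0.05. DESeq2 with the block called 6 higher (0.924%) and 2 lower (0.598%), and the a and b libraries alone gave 8 higher (0.73%) and 1 lower (1.06%). PCK1, the rate-limiting enzyme of gluconeogenesis, had 805, 788 and 826 CPM on D6, against 721, 978 and 1234 CPM on D5. Its days overlapped.

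The remaining called rises have other or less known roles. STYXL2, a muscle pseudophosphatase needed for sarcomere assembly in zebrafish, had 170, 153 and 356 CPM on D6 and 30.8, 55 and 124 CPM on D5, a 3.44-fold rise (adjusted p = 0.0209). AMPD3 (ENSDARG00000032469), an AMP deaminase, rose 2.26-fold, and GYG1 (ENSDARG00000011934), the primer protein of glycogen synthesis, rose 2.09-fold. TANGO6, a gene of Golgi transport, rose 2.17-fold, with 12.6, 10.6 and 28.5 CPM on D6 and 5.13, 5.99 and 12.2 CPM on D5. The gene si:dkey-274m14.3, which has no described role here, had 4.05, 3.94 and 19.4 CPM on D6, against 0.192, 0.230 and 0.797 CPM on D5. Its fitted rise was the largest of the 25 at log2 4.33 ± 0.59, but it rests on few D5 reads.

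All 25 rises were positive in each of the 3 letter pairs, as were 18.3% of all genes tested. In 18 of the 25 the days did not overlap, which was the case upwards for 4.38% of all genes. The 7 with an overlap were PSME4, TRIM55, SQSTM1, rnf25, AMPD3, TANGO6 and TPP2. D5 c was the highest D5 library in 24 of the 25, and D6 c was the highest D6 library in 23. For these ranks the share over all genes tested was not computed. The median step of the 25 was 1.36 in a, 1.24 in b and 1.23 in c.

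Among the falls, 3 code for calcium-binding proteins of the muscle membrane system that stores and releases calcium. CASQ1 (ENSDARG00000038716), calsequestrin of fast muscle, binds calcium inside the sarcoplasmic reticulum. It had 69.6, 74.9 and 42.7 CPM in D6 a, b and c, against 192, 236 and 203 CPM in D5 a, b and c, a 3.31-fold fall (log2 -1.73 ± 0.30, adjusted p = 0.0412). CASQ2, the calsequestrin of heart and slow muscle, had nearly equal levels of 28.8, 29.2 and 30.2 CPM on D6, against 70.4, 91.3 and 122 CPM on D5 (log2 -1.62 ± 0.26). SRL (ENSDARG00000112959), the calcium-binding sarcalumenin, had 22.4, 27.2 and 16.2 CPM on D6, against 49.99, 64.9 and 44.8 CPM on D5 (log2 -1.29 ± 0.18, adjusted p = 0.0209). The days did not overlap for any of the 3 genes. The caveolin gene cav4b, another fall held in the same gene list, was at low levels. It had 2.91, 1.91 and 0.592 CPM on D6, against 8.33, 8 and 7.44 CPM on D5.

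These 4 genes were the calls among 35 tested genes of the sarcoplasmic reticulum and calcium release (0.0782% of all genes were called lower). The list was chosen after its values were seen. Its fitted differences lay below 0 in 26 genes (48.7% of all genes) and above 0 in 9 (51.3%). In this list 15 genes were lower and 0 higher at an unadjusted p-value below 0.05, where 4.46% of all genes were lower, and the median was -0.38. The list of contractile and other skeletal muscle genes had 0 of 42 called by edgeR's test. At an unadjusted p-value below 0.05, 2 were higher (5.86% of all genes) and 6 lower (4.46%). With DESeq2 and the block, 0 of the 42 were called higher and 4 lower, where 0.598% of all genes were called lower. Its steps pointed to different sides, with medians of 0.14 in a, -0.56 in b and -0.76 in c. Parvalbumin pvalb2, an abundant calcium buffer of fast fibres, had 14047, 8818 and 6427 CPM on D6, against 12746, 9417 and 9454 CPM on D5. The myosin heavy chain myhz1.1 had 4952, 5698 and 17358 CPM on D6, against 2562, 6755 and 17615 CPM on D5. In both, the letters differed more than the days.

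A pair of the called falls code for enzymes of cholesterol synthesis. CYP51A1, the lanosterol demethylase, had 14.6, 25.9 and 25.6 CPM on D6, against 82.3, 86.3 and 65.6 CPM on D5, a 3.63-fold fall (log2 -1.86 ± 0.31, adjusted p = 0.0382). SQLE (ENSDARG00000079946), squalene epoxidase and a rate-limiting step, had 2.56, 1.79 and 3.42 CPM on D6, against 15.4, 13.5 and 7.57 CPM on D5 (log2 -2.21 ± 0.37, adjusted p = 0.0381). Neither gene overlapped between the days. The paralogue SQLE (ENSDARG00000063319) was not called and had a slightly higher mean on D6, at 2.71 CPM against 2.12 CPM on D5. In the list of 30 cholesterol genes, which does not hold CYP51A1, SQLE (ENSDARG00000079946) was the only call (0.0782% of all genes lower). The median was -0.64. At an unadjusted p-value below 0.05, 16 were lower (4.46% of all genes) and 3 higher (5.86%). Without the c libraries, 9 of the 30 were called lower and 0 higher, where 1.06% of all genes were called lower, and DESeq2 with the block also called 9 lower and 0 higher (0.598% of all genes lower).

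Uncalled members with known roles, chosen after their values were seen, had similar patterns. LSS, lanosterol synthase, had 1.28, 1.43 and 2.5 CPM on D6, against 6.34, 6.50 and 4.65 CPM on D5 (adjusted p = 0.0833). MSMO1, a sterol oxidase, had 27.1, 31.5 and 23.7 CPM on D6, against 89.5, 64.4 and 39.4 CPM on D5 (adjusted p = 0.111). In both genes every D6 library lay below every D5 library, but neither passed the adjusted test.

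The largest fall of a gene with a known role was that of gch2, a GTP cyclohydrolase that starts pteridine synthesis in the yellow pigment cells of zebrafish. It had 3.76, 8.36 and 3.22 CPM on D6, against 45.9, 48.5 and 77.9 CPM on D5, a 10.7-fold fall (log2 -3.42 ± 0.56, adjusted p = 0.0371). It was the only call among 26 pigment cell genes (0.0782% of all genes were called lower), whose median was -0.18. The liver-expressed antimicrobial peptide leap2, which in mammals also blocks the ghrelin receptor, had 3.41, 1.85 and 4.67 CPM on D6, against 27.0, 11.5 and 22.8 CPM on D5. It fell 6.26-fold (adjusted p = 0.0209) and was still called without D6 c.

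A gene known from cartilage and a gene known from mineralized tissue were also among the called falls. Counts of whole larvae do not show the tissue of origin. The link protein gene hapln1a, whose product ties hyaluronan to proteoglycans in cartilage, had 32.0, 31.6 and 7.43 CPM on D6, against 72.7, 90.9 and 36.7 CPM on D5 (log2 -1.58 ± 0.29, adjusted p = 0.0453). The other, scpp5, codes for a calcium-binding phosphoprotein of fish teeth and scales, and had 13.1, 7.52 and 12.7 CPM on D6, against 26.2, 23.1 and 34.6 CPM on D5 (log2 -1.34 ± 0.20, adjusted p = 0.0371). Both were free of overlap. Other falls with a described role were ADSS2 of purine synthesis (2.47-fold), the endolysosomal cation channel MCOLN3 (2.55-fold) and chchd3b of the mitochondrial inner membrane (2.86-fold). The genes si:ch211-251f6.6 and si:dkey-31g6.6 fell 3.84-fold and 4.71-fold, and ENSDARG00000092143, which has no name in the table, fell 2.44-fold.

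Of the 17 falls, 16 were negative in all 3 letter pairs, as were 17.7% of all genes tested, and 16 did not overlap between the days, which was the case downwards for 5.94% of all genes. The median steps were -1.47 in a, -1.71 in b and -1.76 in c. The exception was si:dkey-153m14.1, which had 5.11, 1.97 and 0 CPM on D6 and 161, 250 and 0 CPM on D5. Its level over the days was uneven, since D4 had 1.01, 8.31 and 0 CPM and D7 had 200, 315 and 0 CPM. It was thus listed at 0 in each of the c libraries, and its call rests on the a and b libraries.

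**Figure D2:**
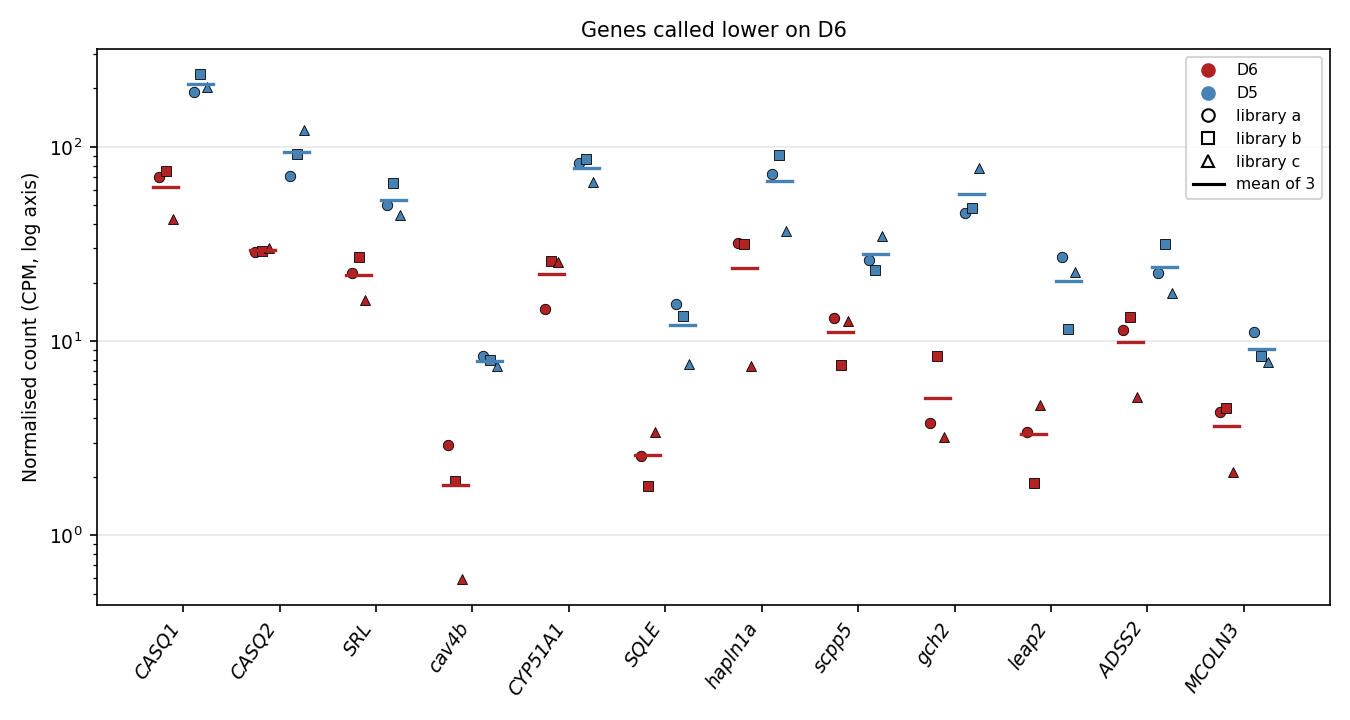
Normalised counts (CPM, log axis) of 12 called falls in the D6 libraries (red, left) and the D5 libraries (blue, right), with 1 point per library shaped by its letter and a bar at the mean of 3. The D6 and D5 points of each gene do not overlap, and CASQ2 had nearly equal D6 levels of 28.8, 29.2 and 30.2 CPM.

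The step can be set within the course of 5 days. The D7 values share the D6 libraries and the D4 values share the D5 libraries with the comparison, so the steps on either side are not independent of it and are given side by side. FBXO32 had 4.02, 4.61 and 4.08 CPM on D3, 7.04, 9.67 and 5.02 CPM on D4, and 393, 355 and 352 CPM on D7. Its D5 minus D4 difference was 3.36 on the log2 scale (adjusted p = 0.00146), larger than the 1.76 of D6 minus D5, and D7 minus D6 was 0.53. CALCOCO1 (ENSDARG00000016391) had a D5 minus D4 difference of 3.88 (adjusted p = 9.5e-05). The muscle ligase trim63a (2.60, adjusted p = 0.00504), PSME4 (ENSDARG00000087911) (2.48, adjusted p = 0.0103), STYXL2 (2, adjusted p = 0.00715) and AMPD3 (ENSDARG00000032469) (1.11, adjusted p = 0.0494) were also called between D5 and D4. For these 6 genes the D6 step followed a rise already called on D5, where 0.156% of all genes were called higher than on D4. Of the other called genes, si:dkey-153m14.1 was called higher and si:dkey-31g6.6 lower on D5 than on D4, where 0.124% of all genes were called lower.

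Called proteasome genes took different courses, since PSME4 (ENSDARG00000087911) had already risen on D5. The D5 minus D4 difference of psmc1b was 0.05 and that of PSMD11 (ENSDARG00000005134) was -0.08, neither of them called, and both were higher again on D7 by 0.74 and 0.54 (not called). Mean levels on D3, D4 and D5 were 68.9, 61.6 and 64.8 CPM for psmc1b and 57.0, 48.8 and 46.5 CPM for PSMD11 (ENSDARG00000005134). The uncalled PSMB7 went from 141 CPM on D3 to 103 CPM on D5, and PSMD14 from 82.8 to 67.5 CPM. Their rise on D6 thus followed lower D5 levels. The gene retreg1 was near 1 CPM or below on D3 and D4, and had 24.3, 21.1 and 8.35 CPM on D7. CASQ1 (ENSDARG00000038716) had 239, 240 and 296 CPM on D4 and 9.02, 16.6 and 26.8 CPM on D7, so its D7 level was lower still. CYP51A1 took another course: it had 15.1, 16.7 and 25.1 CPM on D3, 75.8, 47.1 and 70.6 CPM on D4, and 8.16, 4.86 and 13.8 CPM on D7, which put D4 and D5 above the days on either side. None of the 42 genes was called between D7 and D6 by the same test, which called 0.0092% of all genes there. The mean of D7 lay above that of D6 in 23 of the 25 rises and below it in 14 of the 17 falls. Shares over all genes tested were not computed for these counts, which are a description only.

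**Figure D3:**
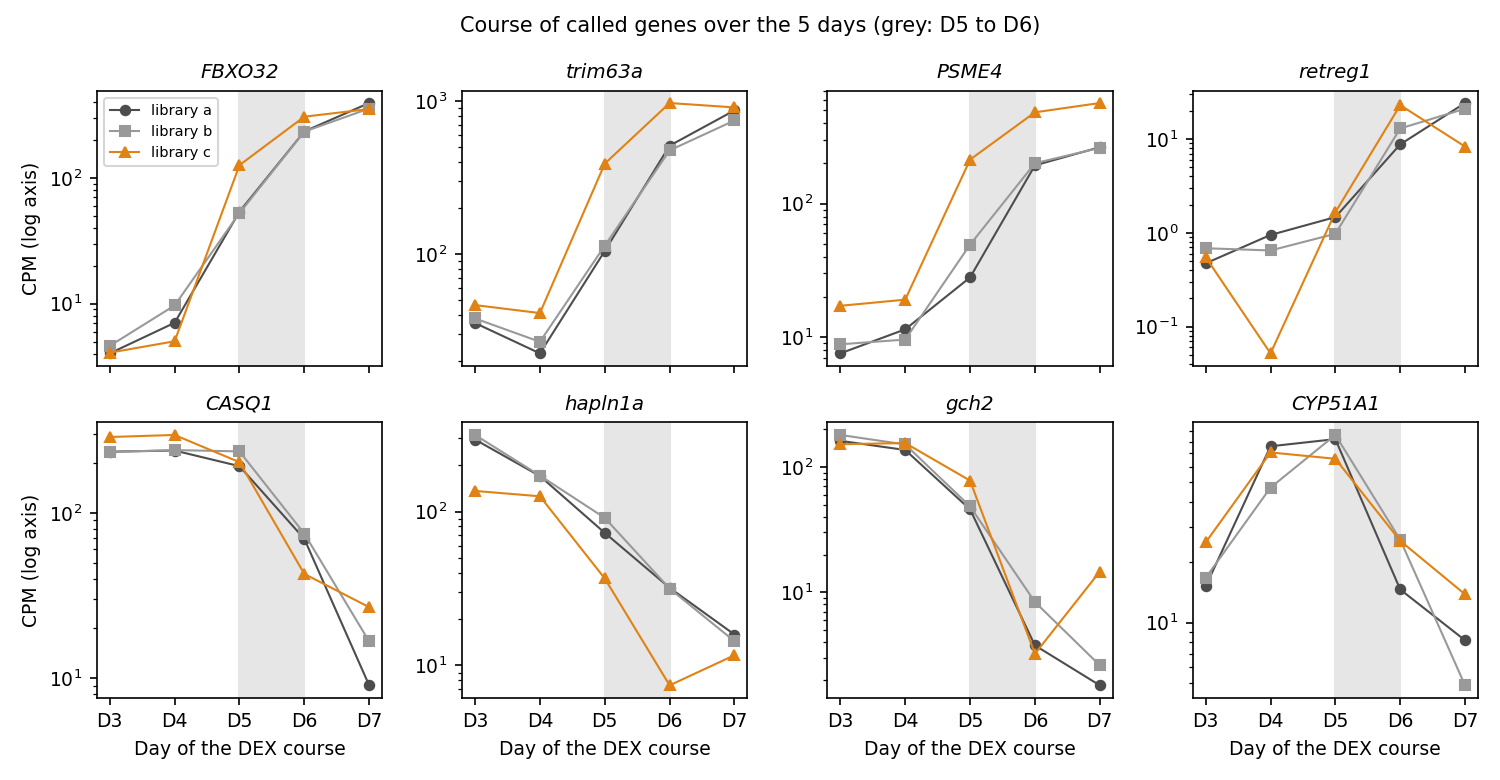
CPM (log axis) of 8 called genes in each library over D3 to D7, with lines joining libraries of the same letter, which are not the same larvae, and the step between D5 and D6 shaded. FBXO32, trim63a and PSME4 were already higher on D5 than on D4, whereas retreg1 on the way up and CASQ1 on the way down moved mainly after D5.

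Genes of cell division were lower on D6 without a call. DNA replication genes had a fitted difference below 0 in 33 of 33, where 48.7% of all genes had one, with a median of -0.62. Of these, 20 were lower (4.46% of all genes) and 0 higher at an unadjusted p-value below 0.05. By edgeR's test 0 were called, whereas DESeq2 with the block called 0 higher and 6 lower (0.598% of all genes lower). PCNA, the sliding clamp of replication, had 136, 98.8 and 89.1 CPM on D6, against 230, 165 and 151 CPM on D5 (adjusted p = 0.311). RRM1, which makes DNA precursors, had 35.0, 29.7 and 40.6 CPM on D6, against 58.4, 60.0 and 73.3 CPM on D5 (adjusted p = 0.140). MCM7, a subunit of the replicative helicase, overlapped between the days with 50.5, 49.1 and 58.2 CPM on D6 and 47.1, 53.9 and 69.7 CPM on D5. Other helicase subunits, chosen after their values were seen, had larger fitted falls. These were MCM2 (log2 -1.33), MCM3 (-1.16), MCM5 (-1.36) and MCM6 (ENSDARG00000057683) (-1.48). None of these was called by edgeR's test over all letters, but each was called lower in the a and b libraries alone.

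In the mitosis list 29 of 29 had a fitted difference below 0, with a median of -0.63, and 11 were lower (4.46% of all genes) and 0 higher at an unadjusted p-value below 0.05. None was called by edgeR's test or by DESeq2 with the block. The proliferation marker mki67 had 16.3, 16.2 and 19.1 CPM on D6, against 36.4, 37.5 and 19.9 CPM on D5, so that the difference was wide in a and b and narrow in c. TOP2A, a topoisomerase of dividing cells, had 21.3, 21.0 and 27.6 CPM on D6, against 33.8, 43.3 and 47.4 CPM on D5. With the a and b libraries alone, 8 of 33 replication genes and 6 of 29 mitosis genes were called lower (1.06% of all genes) and 0 higher.

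**Figure D4:**
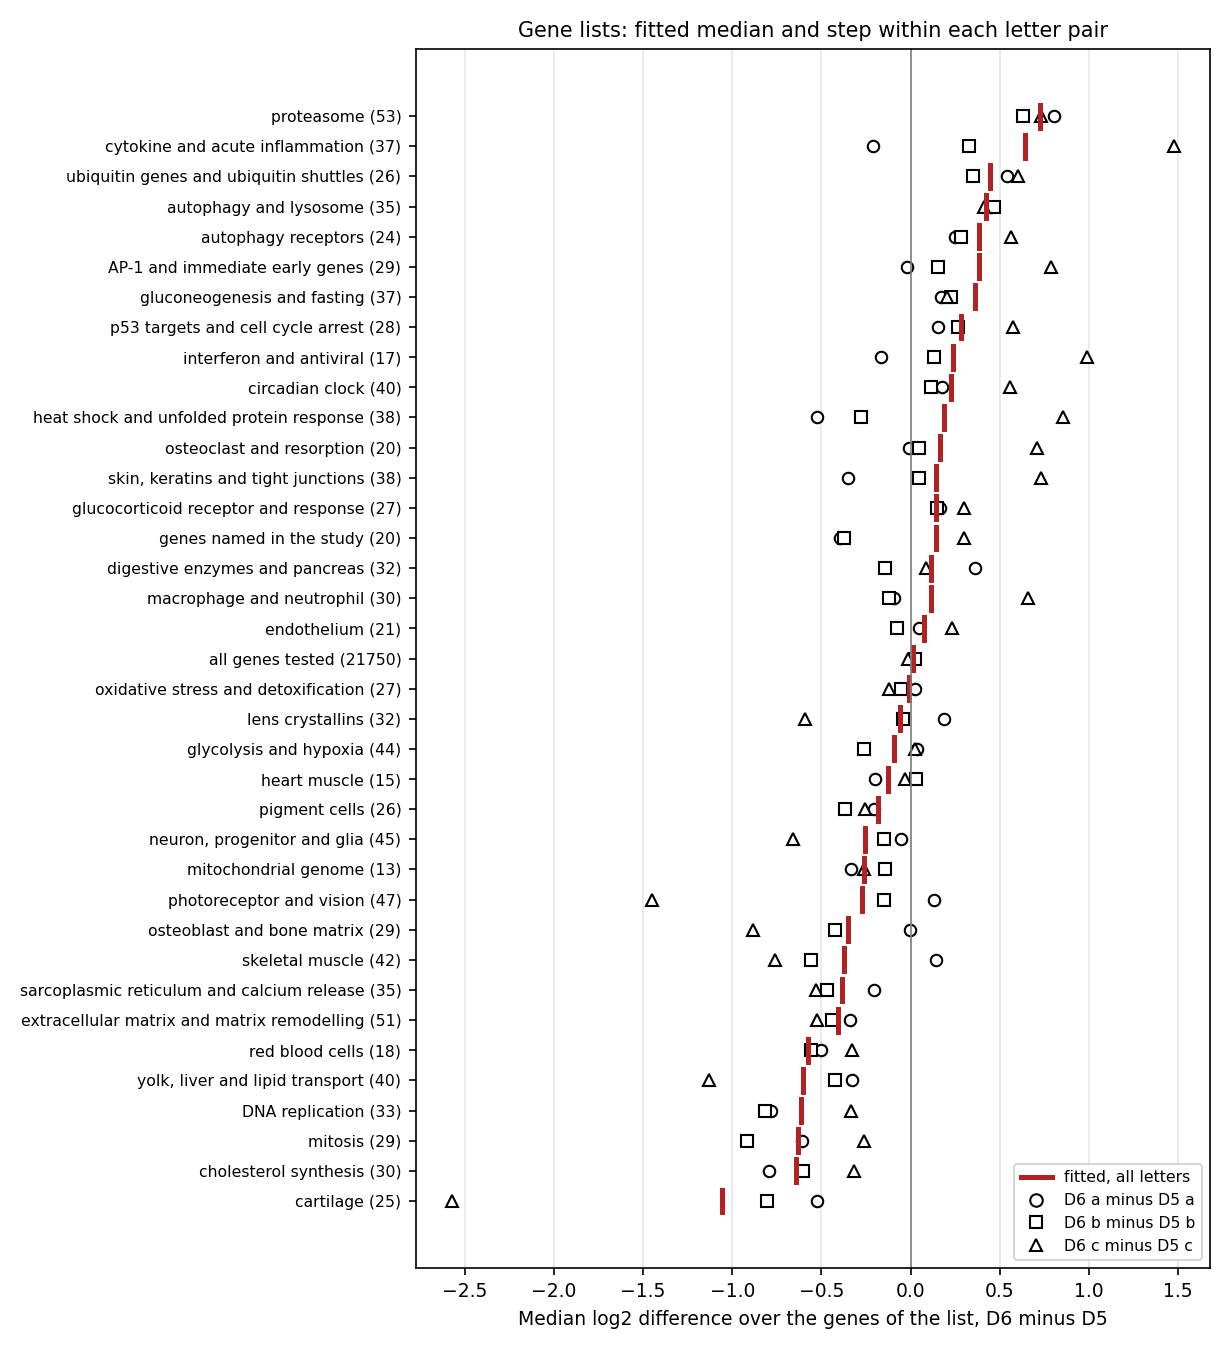
Median log2 difference, D6 minus D5, over the tested genes of each list (number in brackets), with the fitted median as a red bar and the medians within letters a (circle), b (square) and c (triangle). The proteasome list lies at 0.73 with its letters close together, while the c pair lies far from a and b for cartilage, photoreceptor and cytokine genes.

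Bone and cartilage are the tissues the study is about. Of 29 tested osteoblast and bone matrix genes, 0 were called by edgeR's test, and 10 were lower (4.46% of all genes) and 0 higher at an unadjusted p-value below 0.05. DESeq2 with the block called 0 higher and 1 lower (0.598% of all genes), and the a and b libraries alone gave 0 higher and 3 lower (1.06% of all genes). Type I collagen, the main protein of bone matrix, was among the lower ones: col1a1a had 297, 339 and 124 CPM on D6, against 665, 859 and 1293 CPM on D5 (log2 -1.63 ± 0.54, adjusted p = 0.292). In the a and b libraries alone col1a1a was called lower (-1.27 ± 0.28, adjusted p = 0.0382), as were POSTN (ENSDARG00000104267), the matrix protein periostin (-1.18, adjusted p = 0.00774), and COL10A1 (ENSDARG00000054753), type X collagen (-0.91, adjusted p = 0.0244). SPARC, the matrix protein osteonectin, had 1051, 904 and 265 CPM on D6, against 1619, 1265 and 960 CPM on D5 (log2 -0.86 ± 0.35, adjusted p = 0.429). SP7, the transcription factor of osteoblasts behind the GFP reporter, had 4.40, 2.63 and 1.84 CPM on D6, against 5.26, 3.45 and 3.19 CPM on D5 (log2 -0.44 ± 0.33, adjusted p = 0.690). For SP7 and SPARC the days overlapped, and for col1a1a they did not.

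In cartilage, hapln1a was the only call of edgeR's test over all letters among 25 tested genes (0.0782% of all genes lower). At an unadjusted p-value below 0.05, 15 were lower (4.46% of all genes) and 0 higher. DESeq2 with the block called 2 lower and 0 higher (0.598% of all genes lower), and the a and b libraries alone gave 7 lower and 0 higher (1.06% of all genes lower). The median of the list was the lowest of all lists at -1.06, but the letters were uneven, with -0.52 in a, -0.81 in b and -2.57 in c, and in the a and b libraries alone the median was -0.76. COL2A1 (ENSDARG00000069093), type II collagen, had 457, 503 and 78.8 CPM on D6, against 795, 1047 and 982 CPM on D5 (log2 -1.37 ± 0.58, adjusted p = 0.451). COL2A1 (ENSDARG00000011407), its paralogue, had 123, 162 and 42.2 CPM on D6, against 219, 277 and 290 CPM on D5 (adjusted p = 0.484). In both, D6 c lay far below D6 a and D6 b.

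The gene cdkn1a, which the study takes as its lead gene, codes for p21, an inhibitor of cyclin-dependent kinases. It had 4.76, 4.48 and 17.0 CPM on D6, against 11.09, 8.23 and 4.25 CPM on D5, and was not called (log2 0.17 ± 0.53, adjusted p = 0.948). The letters went opposite ways: D6 was below D5 in a and in b, and above it in c. With the a and b libraries alone, cdkn1a was called lower on D6, at log2 -1.07 (adjusted p = 0.0346). Its direction at this step thus depended on the c libraries. The study ranked cdkn1a by network links and pathways, and measured it on D6 by quantitative PCR in DEX-treated against wild-type larvae. That comparison was not made here.

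RELA and JUN, subunits of NF-kB and AP-1 that the study ranks high, were not called. The study ranked them by network links and pathways within a selected group of genes, not by a change from D5 to D6. RELA had 6.96, 8.78 and 22.0 CPM on D6, against 6.15, 7.42 and 7.24 CPM on D5 (adjusted p = 0.432). JUN had 124, 120 and 360 CPM on D6, against 109, 127 and 160 CPM on D5 (adjusted p = 0.531). In both, D6 c lay above every other library while D6 a overlapped the D5 range. Of the 20 tested genes that the study names, 0 were called by edgeR's test or by DESeq2 with the block. At an unadjusted p-value below 0.05, 1 was higher (5.86% of all genes) and 5 lower (4.46%).

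The same single library carried most of the inflammation signal. The cytokine il1b had 0.923, 2.03 and 91.5 CPM on D6, against 4.17, 0.288 and 8.30 CPM on D5 (log2 2 ± 0.98, adjusted p = 0.512). MMP9, a gelatinase released by activated leukocytes and wounded skin, had 9.73, 19.2 and 537 CPM on D6, against 56.0, 8.63 and 105 CPM on D5. The study counts mmp9 among osteoclast-related genes. It reports a high level on D6 by quantitative PCR in DEX-treated against wild-type larvae, a comparison not made here. FOSL1, an AP-1 subunit, had 3.34, 6.86 and 388 CPM on D6, against 6.47, 5.06 and 36.7 CPM on D5. None of the 37 tested cytokine and acute inflammation genes was called by edgeR's test. At an unadjusted p-value below 0.05, 9 were higher (5.86% of all genes) and 1 lower (4.46%). DESeq2 with the block called 0 higher and 1 lower (0.598% of all genes lower). The a and b libraries alone gave 0 higher and 3 lower (1.06% of all genes lower). The median step of the list was -0.21 in a, 0.33 in b and 1.48 in c. All the named genes were highest in D6 c. Of 20 tested osteoclast and resorption genes, 0 were called by edgeR's test or by DESeq2 with the block. At an unadjusted p-value below 0.05, 2 were higher (5.86% of all genes) and 1 lower (4.46%). The median steps of the osteoclast list were -0.01 in a, 0.05 in b and 0.71 in c.

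Markers of other tissues moved with D6 c as well. Against the mean of D6 a and D6 b, D6 c was lower for cartilage (median log2 difference -2.06), photoreceptor (-1.71) and yolk and liver genes (-1.13), and higher for skin (1.51) and heat shock genes (1.18). The summed level of the 47 tested photoreceptor genes was 12685, 8519 and 2182 CPM on D6, against 10537, 9955 and 8275 CPM on D5. The red cone opsin opn1lw2 had 2356, 1494 and 27.1 CPM on D6, against 1943, 1672 and 1229 CPM on D5. For the 38 skin genes the sums were 10506, 9943 and 20785 CPM on D6, against 14363, 10992 and 15202 CPM on D5. In the fit that left out every c library, all 42 genes were called, but that fit reuses a and b libraries that also gave the calls.

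Some clock genes set the c libraries against the others on both days. PER1 (ENSDARG00000012499), a repressor of the circadian clock, had 11, 12.5 and 111 CPM on D6, against 63.2, 79.4 and 17.1 CPM on D5. NR1D1, the clock receptor REV-ERB alpha, had 8.52, 9.37 and 83.6 CPM on D6, against 65.7, 69 and 16.3 CPM on D5. In the opposite direction, nfil3-5 had 135, 159 and 210 CPM on D6, against 25.5, 23.5 and 152 CPM on D5, and rorcb had 101, 114 and 62.0 CPM on D6, against 18.5, 17.3 and 86.4 CPM on D5. For PER1 (ENSDARG00000012499) and NR1D1, D5 c was thus nearer to D6 a and D6 b than to D5 a and D5 b. None of the 40 tested clock genes was called by edgeR's test over all letters, nor by DESeq2 with the block. At an unadjusted p-value below 0.05 in edgeR's test, 10 were higher (5.86% of all genes) and 1 lower (4.46%).

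With the a and b libraries alone, 5 of the 40 clock genes were called higher (0.73% of all genes) and 10 lower (1.06%). PER1 (ENSDARG00000012499) differed by -2.60 ± 0.20 (adjusted p = 2.4e-05), NR1D1 by -2.91 ± 0.18 (adjusted p = 7.6e-06) and rorcb by 2.57 ± 0.17 (adjusted p = 9.6e-06). The hour at which larvae were sampled is not given in the sources used here. PER1 (ENSDARG00000012499), NR1D1 and rorcb therefore moved 1 way in a and b and the opposite way in c, whereas nfil3-5 rose in every letter. The part of clock genes in the other differences was not tested.

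**Figure D5:**
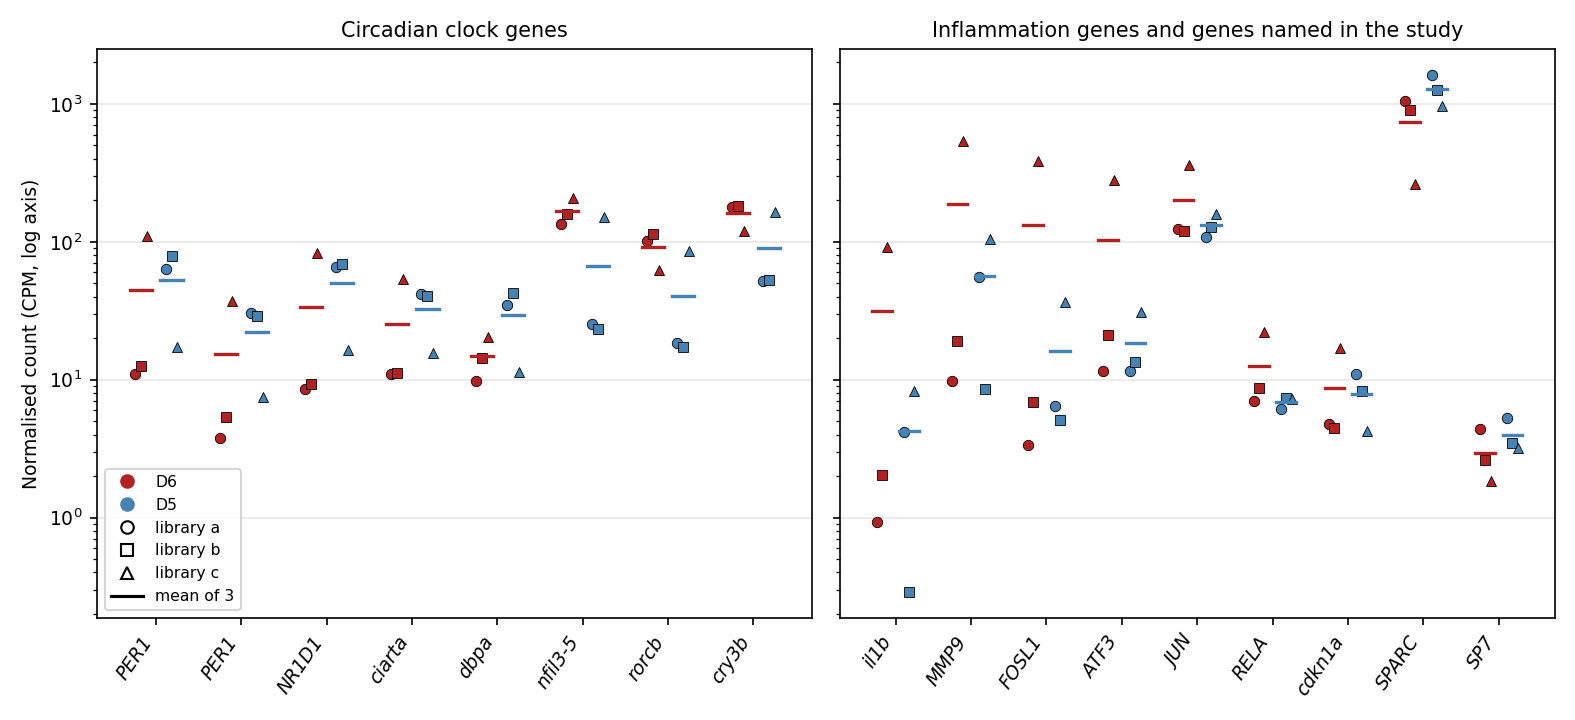
Normalised counts (CPM, log axis) of clock genes, with both PER1 genes in the left panel, and of inflammation genes and genes named in the study in the right panel, in D6 (red, left) and D5 (blue, right) libraries. The c library (triangle) runs against a and b on both days for PER1 and NR1D1, and D6 c stands alone for il1b, MMP9 and FOSL1.

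Genes of the glucocorticoid receptor and its response gave calls only in some of the fits. Of the 27 tested, 0 were called by edgeR's test, and the median was 0.14. At an unadjusted p-value below 0.05, 2 were higher (5.86% of all genes) and 1 lower (4.46%), close to the shares over all genes. DESeq2 with the block called 1 higher (0.924% of all genes) and 1 lower (0.598%). The a and b libraries alone gave 2 higher (0.73% of all genes) and 2 lower (1.06%), the lower ones being the PER1 genes of the clock. FKBP5, a chaperone that the receptor switches on, had 672, 720 and 990 CPM on D6, against 594, 643 and 1103 CPM on D5 (log2 0.05 ± 0.37, adjusted p = 0.980). PDK2 (ENSDARG00000059054), a kinase that turns off pyruvate dehydrogenase, had 593, 711 and 2302 CPM on D6, against 145, 163 and 2049 CPM on D5 (log2 1.42 ± 0.43, adjusted p = 0.239). The step of PDK2 (ENSDARG00000059054) was wide in a and b and small in c, where the D5 level was already high. In the a and b libraries alone it was called higher on D6 (log2 difference 2.07, adjusted p = 0.000194), as was KLF9, a transcription factor that the receptor switches on (0.83, adjusted p = 0.0382).

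Since the study singles out D6 for its within-day variation, the spread of each day was measured. The mean over the 3 library pairs of the root mean square difference of log2 CPM was 0.883 ± 0.368 on D6 and 0.746 ± 0.254 on D5 (SD, n = 3 pairs), a ratio of 1.18. With 3 libraries a day this is a description without a test. The SD over libraries was larger on D6 in 62.3% of the genes, and of the D6 libraries c lay farthest out in 64.9% of the genes, against 52.4% for c among the D5 libraries. Between a and b alone, the difference was 0.462 on D6 and 0.454 on D5, a ratio of 1.02. Without the c libraries the spread of D6 was thus close to that of D5, but that value rests on a single pair of libraries per day. The measure covers all genes tested, on D6 and D5 only. The study instead scored the SD and correlations of a selected group of genes over D3 to D7 and clustered the samples. Its proposal for D6 was therefore not tested here.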

How the data were processed

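RNA-seq reads of whole DEX-treated larvae were trimmed by the authors with Trim Galore, aligned to GRCz11 with STAR (2.7.8) and counted on genes with HTSeq (0.13.5), and raw counts without normalization were deposited for 32520 Ensembl identifiers. The gene annotation used, its strand option and the handling of overlapping genes are not given in the sources used here, so counts of paralogues and overlapping genes are uncertain. The name table paired 29201 identifiers with a symbol. The 10 per-sample columns of the crispant table were not used.

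Counts of all 15 DEX libraries (5 days) were fitted with edgeR (4.0.16, R 4.3.3): TMM scaling, filterByExpr, a quasi-likelihood fit with day and letter, the contrast D6 minus D5 and Benjamini-Hochberg adjustment over 21750 genes at 0.05, with 8 residual degrees of freedom. DESeq2 (1.42.0) was an alternative, as were other scalings and filters, fits without the letter, of the D6 and D5 libraries only, of libraries a and b over the 5 days, and without each library in turn. CPM used TMM-scaled library sizes. Deviations of D6 and D5 libraries from the mean of their day were correlated within a letter (r across genes 0.46 for a, 0.47 for b and 0.59 for c). Over all days, the 30 pairs of libraries that share a letter lay between 0.07 and 0.75. Correlations between letters were not computed, and c stood apart on both days, so these values cannot decide whether the letters pair the libraries. The labels number the replicates and carry no letters. No libraries of a day agreed within sampling noise. The edgeR fit was tested on simulated data, with 100 genes changed by 1 and 100 genes by 2 on the log2 scale. It called 20% of the former and 88% of the latter, along with 7 unchanged genes. In the simulation, changes near 1 on the log2 scale were thus mostly missed. The simulated counts followed the fitted effects of day and letter, with no departure of a single library such as D6 c. The changed genes were taken above a floor of fitted counts. These rates may therefore not hold for the real libraries.

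Members and gene lists were chosen with earlier results of these data known: 32 lists, and 4 more (proteasome, ubiquitin, autophagy receptors, sarcoplasmic reticulum) chosen after their values were seen. Of 1047 gene names in the lists, 977 were matched, 214 of them without the paralogue suffix. Named genes were the 15 largest rises and 15 largest falls among called genes with a name, mean log2 CPM not below 0 and 1 sign in all letters, all other called genes, genes that the study names, called list members and, in other lists, members of the highest mean CPM. Names outside this rule were chosen after their values were seen, as were the clock and inflammation genes shown. Sequences and coordinates were not used here.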

Additional observations from a re-analysis of the deposited data

How the results depend on the processing

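All 42 called genes kept their direction in each of the 15 alternatives in which they were tested (6 of them were not tested with at least 10 counts in every library), whereas the number of calls varied widely. The alternatives refit the same counts or parts of them, so a kept direction is not independent support. Over 624 pairs of a called gene and an alternative, the call was kept in 309. Whether the letters pair the libraries was not tested. Without the replicate block 0 genes were called by edgeR's test, with DESeq2 calling 109, 29 of them shared. With the replicate block, DESeq2 called 331 genes, including all 42, and edgeR fitted on the D6 and D5 libraries only called 0 (2263 before adjustment). Without a filter on low counts 71 genes were called, including all 42. Leaving out 1 library at a time gave 0 to 20 calls. The a and b libraries alone gave 387. There, cdkn1a turned to -1.07 on the log2 scale, the spread within D6 was 0.462 and that within D5 was 0.454. RLE scaling and upper quartile scaling gave 43 calls each, and at least 10 counts in every library gave 50, 36 of them shared. The causes were not tested. An uncalled difference is not shown to be absent, since other fits called more genes.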

Other observations

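Heat shock and unfolded protein response genes had 0 of 38 members called by edgeR's test with all letters. Before adjustment (p-value below 0.05), 6 were higher (5.86% of all genes) and 4 lower (4.46%). With the a and b libraries alone, 7 were called lower (1.06% of all genes) and 0 higher. DESeq2 with the block called 0 higher and 1 lower (0.598% of all genes lower). The medians were -0.52 in a, -0.28 in b and 0.86 in c. SERPINH1 (ENSDARG00000075954), the collagen chaperone HSP47, had 14.3, 11.6 and 5.13 CPM on D6, against 34, 26.2 and 10.7 CPM on D5 (adjusted p = 0.256). Its fall in c ran against the median of the list in c. The heat shock gene hsp70l averaged 586 CPM on D6 and 33.4 CPM on D5 and was not called over all letters (log2 2.30, adjusted p = 0.657). In the a and b libraries alone hsp70l was called lower (-1.62, adjusted p = 0.0394). Red blood cell genes had a median of -0.58, with 15 of 18 fitted differences below 0 (48.7% of all genes) and 0 called by edgeR's test or by DESeq2 with the block. Of these genes, 6 were lower (4.46% of all genes) and 0 higher at an unadjusted p-value below 0.05. Liver and yolk genes had 0 of 40 called by edgeR's test, with 11 lower (4.46% of all genes) and 0 higher at an unadjusted p-value below 0.05. DESeq2 with the block called 0 higher and 2 lower (0.598% of all genes lower). The a and b libraries alone gave 0 higher and 5 lower (1.06% of all genes lower). APOB, the lipoprotein shell protein, had 55.2, 49.7 and 7.96 CPM on D6, against 137, 136 and 72.5 CPM on D5 (adjusted p = 0.0616). In the a and b libraries alone APOB was called lower (-1.38, adjusted p = 0.00312).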
